A study of Mus musculus with 8 samples.

Results

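The regions described here are stretches of chromatin that were called open in every library of a doxycycline (Dox) course in mouse leukaemia cells and that lie close to an end of a protein-coding gene. Peak summits of 8 libraries were extended by 150 bp on each side and merged into 68800 regions, of which 18733 held a summit of all 8 libraries. Leaving out chromosome 4, 17480 such always-open regions stayed, and 7682 of them (43.9%) had their midpoint within 1 kb of either end of a protein-coding gene. The regions were thus chosen by the peak calls, and that they were open throughout is no result. The level of their scores did not enter the choice, beyond the minimum that a call needs.

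The samples were AML246 cells, which are acute myeloid leukaemia cells of the mouse grown with IL-3, in which Dox at 0.1 µg/mL restored the transcription factor PU.1 and its withdrawal brought back PU.1 knockdown, per the labels. ATAC-seq, in which a transposase cuts accessible DNA, was run on 50000 cells per library. The groups were 4, 8 and 12 days on Dox, a sort of CD11b-high viable cells after 12 days on Dox, untreated cells at day 0, and 4, 8 and 12 days off Dox after 12 days on it. All but the CD11b-high sort held total viable cells. Each group held 1 library, so no spread between replicates could be given, no test was possible, and every value describes these libraries. The labels do not say how the PU.1 system was built or whether the line is 1 clone, and whether the libraries came from separate cultures is not stated.

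The start of a gene carries its promoter, where general transcription factors and RNA polymerase assemble, and in mammals most promoters of widely used genes are rich in CpG and stay free of nucleosomes in many cell types. PU.1, encoded by Spi1, is an ETS-family factor needed for myeloid and B cell development, and low PU.1 activity is known from myeloid leukaemia in mice. It binds purine-rich words with a GGAA core, many of them in distal enhancers, while other ETS factors often bind CCGGAAG words in CpG-rich promoters. CD11b is an integrin chain of mature myeloid cells.

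Sequences of the gene starts are given for 12 of these regions, from the RefSeq promoter table of GRCm38.p6, the build also called mm10. Each holds 300 bases, 250 before and 50 from the start on. Capitals mark every match to the words of 17 searched motifs, on either strand. Pglyrp1, Pik3cg and Ccl3 are shown because they lead the members with a window whose 4 libraries on Dox all lay above the 4 not on Dox.
Pglyrp1, chr7:18884440-18884739, plus strand: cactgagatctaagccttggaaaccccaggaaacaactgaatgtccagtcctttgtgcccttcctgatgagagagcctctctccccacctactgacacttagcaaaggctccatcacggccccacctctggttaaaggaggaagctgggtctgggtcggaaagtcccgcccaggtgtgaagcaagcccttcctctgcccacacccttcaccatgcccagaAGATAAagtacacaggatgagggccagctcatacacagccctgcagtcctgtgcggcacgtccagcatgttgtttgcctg
Pik3cg, chr12:32208421-32208720, minus strand: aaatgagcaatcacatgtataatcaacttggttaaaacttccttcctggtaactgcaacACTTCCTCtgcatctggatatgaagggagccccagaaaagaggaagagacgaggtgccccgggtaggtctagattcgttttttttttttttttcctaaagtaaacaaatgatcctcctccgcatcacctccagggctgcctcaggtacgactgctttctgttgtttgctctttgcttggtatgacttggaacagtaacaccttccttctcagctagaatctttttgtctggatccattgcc
Ccl3, chr11:83649329-83649628, minus strand: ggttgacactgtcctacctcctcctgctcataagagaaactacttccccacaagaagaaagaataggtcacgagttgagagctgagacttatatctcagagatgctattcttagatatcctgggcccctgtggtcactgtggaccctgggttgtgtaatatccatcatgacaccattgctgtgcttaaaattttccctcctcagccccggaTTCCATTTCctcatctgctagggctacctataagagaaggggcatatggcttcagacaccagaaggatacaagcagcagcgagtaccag
Csf2rb2, Zkscan4, I830077J02Rik, Fgd2 and Traf3ip3 are shown because they hold the PU.1 word GAGGAAGT, which reads ACTTCCTC on the other strand, and scored at least 2-fold higher at day 12 than at day 0.
Csf2rb2, chr15:78305672-78305971, minus strand: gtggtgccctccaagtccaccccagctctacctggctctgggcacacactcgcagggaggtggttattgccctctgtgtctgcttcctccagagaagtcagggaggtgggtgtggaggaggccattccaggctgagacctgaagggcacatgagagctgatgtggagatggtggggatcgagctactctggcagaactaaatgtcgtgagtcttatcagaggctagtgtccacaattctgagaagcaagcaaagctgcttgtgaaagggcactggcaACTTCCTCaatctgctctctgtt
Zkscan4, chr13:21478599-21478898, plus strand: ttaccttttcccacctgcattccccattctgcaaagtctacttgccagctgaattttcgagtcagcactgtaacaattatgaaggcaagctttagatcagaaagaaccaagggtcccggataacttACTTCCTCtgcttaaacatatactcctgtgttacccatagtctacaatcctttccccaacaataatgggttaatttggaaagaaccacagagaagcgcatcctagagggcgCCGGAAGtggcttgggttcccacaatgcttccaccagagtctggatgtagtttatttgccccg
I830077J02Rik, chr3:105932615-105932914, minus strand: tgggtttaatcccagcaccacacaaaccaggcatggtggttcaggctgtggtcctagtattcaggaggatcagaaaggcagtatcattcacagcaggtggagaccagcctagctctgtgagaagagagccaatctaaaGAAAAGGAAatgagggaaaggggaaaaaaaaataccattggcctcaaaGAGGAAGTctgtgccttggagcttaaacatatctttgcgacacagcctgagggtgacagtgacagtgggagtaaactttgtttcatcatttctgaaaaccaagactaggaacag
Fgd2, chr17:29360664-29360963, plus strand: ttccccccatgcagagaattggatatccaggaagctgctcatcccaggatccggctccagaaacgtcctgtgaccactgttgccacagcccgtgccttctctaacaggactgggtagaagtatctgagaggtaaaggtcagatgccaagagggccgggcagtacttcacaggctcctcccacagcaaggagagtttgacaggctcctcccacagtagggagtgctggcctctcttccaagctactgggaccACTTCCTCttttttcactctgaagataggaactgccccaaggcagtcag
Traf3ip3, chr1:193201497-193201796, minus strand: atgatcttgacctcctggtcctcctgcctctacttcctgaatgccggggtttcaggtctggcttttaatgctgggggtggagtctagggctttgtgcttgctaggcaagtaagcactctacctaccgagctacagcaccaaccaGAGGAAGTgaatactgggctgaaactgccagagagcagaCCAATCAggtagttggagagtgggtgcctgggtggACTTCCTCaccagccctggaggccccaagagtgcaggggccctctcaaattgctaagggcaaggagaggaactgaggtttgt
Fam13a, Kcnn4 and Zfp964 lead the members with a window whose libraries on Dox all lay below the others, and Acbd5 had the steadiest score of all.
Fam13a, chr6:59024453-59024752, minus strand: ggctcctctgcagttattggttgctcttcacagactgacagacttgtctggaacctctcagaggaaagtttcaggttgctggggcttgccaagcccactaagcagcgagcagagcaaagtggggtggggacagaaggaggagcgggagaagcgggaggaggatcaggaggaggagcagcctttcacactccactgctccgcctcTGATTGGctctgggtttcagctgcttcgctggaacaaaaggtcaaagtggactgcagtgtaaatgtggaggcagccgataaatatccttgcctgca
Kcnn4, chr7:24370013-24370312, plus strand: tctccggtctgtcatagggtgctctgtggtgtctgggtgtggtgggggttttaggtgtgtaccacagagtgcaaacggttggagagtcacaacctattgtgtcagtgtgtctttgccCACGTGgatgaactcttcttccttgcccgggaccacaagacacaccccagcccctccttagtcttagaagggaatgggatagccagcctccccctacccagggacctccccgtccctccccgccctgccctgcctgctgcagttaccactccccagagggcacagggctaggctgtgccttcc
Zfp964, chr8:69654306-69654605, plus strand: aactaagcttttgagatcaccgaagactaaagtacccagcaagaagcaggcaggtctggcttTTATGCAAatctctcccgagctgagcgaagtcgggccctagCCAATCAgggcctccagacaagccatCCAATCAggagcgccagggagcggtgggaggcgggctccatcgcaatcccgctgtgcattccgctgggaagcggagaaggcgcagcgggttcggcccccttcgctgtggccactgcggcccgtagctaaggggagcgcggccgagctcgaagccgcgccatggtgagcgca
Acbd5, chr2:23067951-23068250, plus strand: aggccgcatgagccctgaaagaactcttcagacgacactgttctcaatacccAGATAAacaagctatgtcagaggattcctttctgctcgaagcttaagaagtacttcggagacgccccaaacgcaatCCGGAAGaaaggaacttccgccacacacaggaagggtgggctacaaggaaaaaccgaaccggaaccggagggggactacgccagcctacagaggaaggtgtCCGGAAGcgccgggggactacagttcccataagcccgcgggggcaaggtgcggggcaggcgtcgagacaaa
The PU.1 word of Pik3cg began 191 bases before the start, that of Zkscan4 124 bases before it and that of I830077J02Rik 64 bases before it. Traf3ip3 held it at 2 places, 106 and 32 bases before the start. In Csf2rb2 and Fgd2 it lay just after the start. Capitals in the other windows are the GATA word AGATAA in Pglyrp1, the IRF word GAAANNGAA in Ccl3 and I830077J02Rik, the NFY word CCAATCA or its other strand in Traf3ip3, Fam13a and Zfp964, the C/EBP word TTGCATAA in Zfp964, the E-box CACGTG in Kcnn4, and the ETS word CCGGAAG in Zkscan4 and Acbd5. Acbd5 also held a GATA word, the only marked match here that lay outside its open region. A match is a description of the letters and not of bound protein.

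Most members were promoters. Of the 7682 regions, 6082 (79.2%) had a gene start within 1 kb, 272 (3.54%) had only the 3′ end of a gene there, and for 1328 the promoter table gave no strand for the gene. The midpoint lay a median of 79 bp from the gene end, 4400 regions (57.3%) lay within 100 bp and 683 (8.89%) beyond 500 bp. The regions had a median length of 411 bp (305 to 1706), much like the 404 bp of always-open regions farther from gene ends, and 6816 held exactly 1 summit of each library. They belonged to 7493 nearest genes, 186 of which had 2 or more members (at most 3), and 1288 regions lay within 1 kb of at least 2 genes. A further 544 always-open regions near gene ends lay on chromosome 4 and were left out by the rule.

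Of all 21887 protein-coding genes 8570 had a member within 1 kb of an end. Of 18 blood and myeloid markers 10 had a member, namely Spi1, Itgb2, Coro1a, Lcp1, Cd37, Vav1, Runx1, Fcer1g, Kit and Lyz2. Ptprc, Laptm5, Cd53, Ikzf1, Tyrobp, Cd34, Csf1r and Itgam, which encodes CD11b, had none. Of 8 T cell markers 2 (Cd3e and Cd3d) had a member, as did 0 of 6 B cell markers, 1 of 6 erythroid markers (Epor) and 1 of 8 non-blood markers (Col1a1). The markers Laptm5 (blood), Lck (T cell) and Pax5 (B cell) lie on chromosome 4, which the rule left out. An open region near a gene end is not a measure of that gene's RNA.

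The deposited score of a summit, read as a −log10 p-value or q-value, grows with sequencing depth. Each score was therefore divided by the library's median over the 18733 regions open in all 8 libraries, so that 1 is the middle of the always-open regions of that library. The divisor was 24.3, 27.1, 26.4 and 15.6 at day 0, 4, 8 and 12, 16.3 in CD11b-high cells, and 31.8, 25.3 and 16.8 at 4, 8 and 12 days off, with 31957 to 51175 summits per library. The divisors of day 12, CD11b-high and 12 days off were thus the lowest, and the part of this in the results was not tested.

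Members scored above the always-open regions farther than 1 kb from gene ends in every library, but by a margin that changed over the course. The median normalised score of members was 1.65, 1.75, 1.3 and 1.34 at day 0, 4, 8 and 12, 1.38 in CD11b-high cells, and 1.21, 1.35 and 1.48 at 4, 8 and 12 days off. The 9798 farther regions had medians of 0.673, 0.638, 0.812 and 0.808 at day 0, 4, 8 and 12, 0.792 in CD11b-high cells, and 0.848, 0.776 and 0.731 at 4, 8 and 12 days off. Total viable cells can be a mixture, so a change in the share of a cell type and a change in accessibility per cell cannot be told apart. The members' median was 2.45 and 2.75 times that of the farther regions at day 0 and 4. It was 1.6 and 1.65 times theirs at day 8 and 12, 1.74 times in CD11b-high cells, 1.43 times theirs at 4 days off, and 1.74 and 2.03 times at 8 and 12 days off. Both sets share each library's divisor, so a lower level of members goes with a higher one of farther regions.

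**Figure D1:**
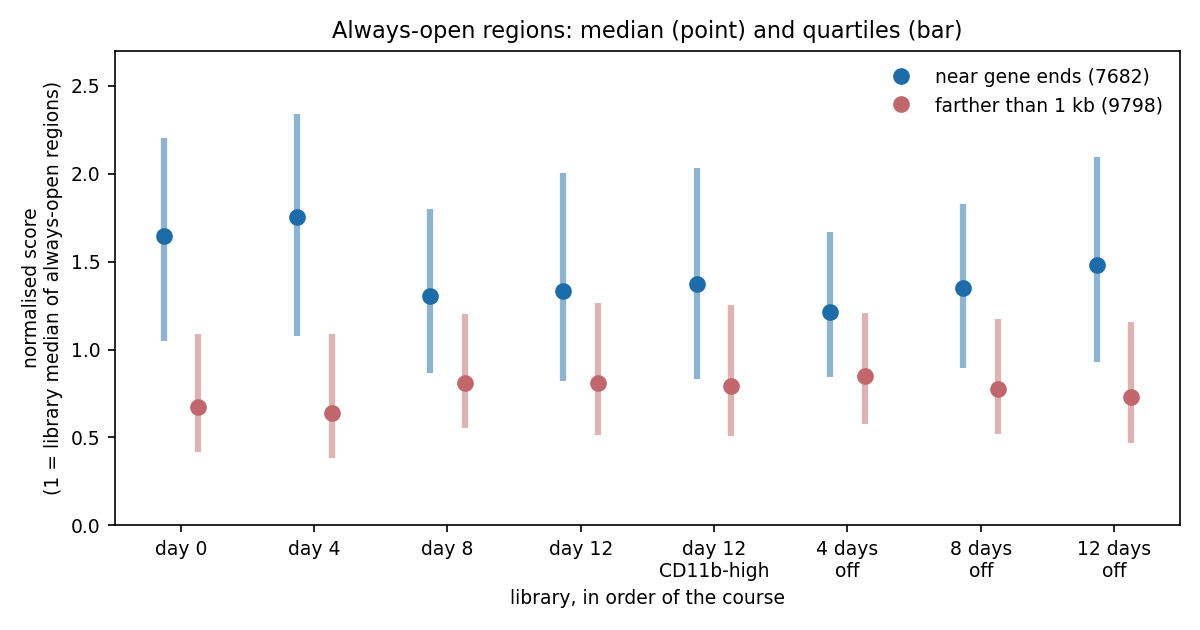
Normalised score (1 is the library's median over always-open regions) in the 8 libraries, in the order of the course. Points are medians and bars run between the quartiles, for the 7682 members in blue and the 9798 farther regions in red; the gap between the points was widest at day 4 and narrowest at 4 days off.

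Within the members, gene starts had a median normalised score of 1.46 over the libraries and regions with only a 3′ end 0.701. The highest scores of all belonged to a region at the 3′ end of Lars2, a mitochondrial leucyl-tRNA synthetase (chr9:123461884-123462189), with 6.69, 4.52, 4.81 and 6.32 on Dox, against 7.79, 3.18, 6.84 and 8.13 not on Dox. Here and below, the values on Dox are those of day 4, 8, 12 and CD11b-high in that order, and the values not on Dox are those of day 0 and of 4, 8 and 12 days off. The next 5 members with the highest medians lay at Rwdd1, Pa2g4, Papss1, Mdm1 and Armc1, with normalised scores of 2.54 to 4.67 in all libraries. Lars2 was thus set apart from the next members in level, and its own lowest value was that of 4 days off. No filter for regions of known artefact signal was applied here to the deposited lists.

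Most of the regions kept a similar score throughout. The ratio of a member's highest to its lowest normalised score over the 8 libraries had a median of 1.88 (quartiles 1.62 and 2.36), against 2.59 for the farther regions. It stayed under 2-fold in 4485 members (58.4%) and under 1.5-fold in 1028 (13.4%), and reached 4-fold in 306 (3.98%), a size that 19.3% of the farther regions reached. The steadiest member was the start of Acbd5, a peroxisomal acyl-CoA binding protein (chr2:23068008-23068658), with 1.02, 1.06, 0.965 and 1.07 on Dox, against 1.02, 1.05, 0.99 and 0.929 not on Dox, a ratio of 1.16. Mturn, Rab3gap1, Prkab1 (a regulatory subunit of AMP-activated kinase) and Zranb2 followed, with ratios of 1.16, 1.16, 1.17 and 1.19. These steady scores stood at very different levels, near 1 at Acbd5 and between 2.26 and 2.64 at Prkab1.

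The question of the course is what changed when PU.1 was restored. Between day 0 and day 4, 102 members scored at least 2-fold higher and 195 at least 2-fold lower, where 4.62% and 6.89% of all always-open regions did so. At day 8 against day 0 the numbers were 184 higher and 383 lower (background 11.2% and 4.64%). At day 12 against day 0, 208 were higher and 686 lower (background 12.1% and 7.71%), which is 2.71% and 8.93% of the members. In CD11b-high cells against day 0, 198 were higher and 593 lower (background 11.4% and 7.31%). The share of members that were higher was thus below the background in each comparison, and the share that were lower was near or above it from day 8 on. These comparisons share the day 0 library.

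The balance of the 2 directions depends on the divisor. The members' median log2 ratio was 0.07 at day 4, -0.27 at day 8, -0.18 at day 12 and -0.16 in CD11b-high cells against day 0. With ratios centred on that median, 291 members were at least 2-fold higher and 422 lower at day 12, and 282 higher and 157 lower at day 8, where the split turns round. Of all 18733 always-open regions, centred on their own median, 2317 were higher and 1409 lower at day 12. At day 8 these were 2387 and 626. With each score divided by the library's median over members alone, 387 were higher and 311 lower at day 12. Which direction holds more members therefore cannot be read from these scores. The position of 1 member relative to the others does not depend on the divisor, but with 1 library per group it has no known spread.

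Members of low level crossed the 2-fold limit more often than those of high level. When members were split into 4 groups by mean score, the lowest 1921 held 157 that were higher and 358 that were lower at day 12 than at day 0. The next 1920 held 33 and 252, the 1920 above them 11 and 70, and the highest 1921 held 7 and 6. Members at gene starts gave 125 higher and 528 lower. Of the 272 with only a 3′ end, 45 (16.5%, 12.3 to 21.5) were higher and 30 (11.0%, 7.57 to 15.4) lower, so these had a larger share of higher regions than the 2.06% (1.71 to 2.44) of gene starts. The intervals are exact 95% intervals that cover counting error only, and the lower level of 3′ regions goes with this difference, in which its part was not tested.

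The 6 members with the highest ratio of day 12 to day 0 were named by the size of that ratio, so only their other libraries carry further information. The highest was a region at the 3′ end of Itpr2, an inositol trisphosphate receptor that releases calcium from the endoplasmic reticulum (chr6:146107370-146107800, 7.35-fold), with 1.16, 1.82, 1.91 and 2.28 on Dox, against 0.26, 0.714, 0.36 and 0.354 not on Dox. Upstream of the olfactory receptor gene Olfr433 (chr1:174040793-174041206, 6.22-fold) the scores were 0.905, 1.05, 1.35 and 1.77 on Dox, against 0.218, 0.533, 0.437 and 0.393 not on Dox. In both, all libraries on Dox lay above all others, and at 12 days off the score was above that of day 0 and below all libraries on Dox. Csf2rb2, the IL-3-specific beta chain of the mouse IL-3 receptor (chr15:78305496-78306038, 5.23-fold), had 0.27, 0.812, 0.992 and 0.918 on Dox, against 0.19, 0.451, 0.27 and 0.301 not on Dox, so its day 4 score was about that of 8 days off and below those of 4 and 12 days off.

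The start of Ppp1r16b, a regulatory subunit of protein phosphatase 1, had 0.546, 0.833, 0.975 and 0.907 on Dox, against 0.164, 0.786, 0.564 and 0.547 not on Dox. Gbp9, an interferon-inducible guanylate-binding protein, had 0.773, 1.07, 1.57 and 1.25 on Dox, against 0.271, 0.499, 0.73 and 0.724 not on Dox, with day 0 the lowest library. At the 3′ end of Ldha, which encodes lactate dehydrogenase A, the scores were 0.345, 0.562, 0.724 and 0.537 on Dox, against 0.136, 0.742, 0.268 and 0.369 not on Dox. At Ppp1r16b and Ldha the libraries on and off Dox overlapped, since the score of 4 days off was above that of day 4 at Ppp1r16b and above all 4 libraries on Dox at Ldha. At Gbp9 they did not overlap.

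At the other end, the lowest ratios often came from a low score in the day 12 library alone. B4galt7, a galactosyltransferase of proteoglycan synthesis, had 0.576, 0.699, 0.154 and 0.831 on Dox, against 1.05, 0.533, 0.371 and 0.757 not on Dox, and its CD11b-high score exceeded that of day 12 more than that of any other member. Vps72, a subunit of histone-exchange complexes, had 1.51, 0.891, 0.229 and 0.868 on Dox, against 1.43, 1.01, 1.01 and 1.1 not on Dox. At the 3′ end of Itga10, an integrin chain, the scores were 0.449, 0.497, 0.0935 and 0.317 on Dox, against 0.613, 0.585, 0.804 and 0.383 not on Dox. In all 3 the day 12 score was below every other library. Such scores lay close to the minimum of a call, and the 0.0935 of Itga10 was the lowest of any member at day 12. Before division, the lowest score of a member in any library was 1.45, and the day 12 list began at 1.32.

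Lrrc73 had 1.01, 0.352, 0.196 and 0.345 on Dox, against 1.21, 0.436, 0.706 and 0.471 not on Dox, and Sord, which encodes sorbitol dehydrogenase, had 0.899, 0.476, 0.174 and 0.46 on Dox, against 0.984, 0.594, 0.894 and 0.851 not on Dox. Their scores were lower at each later time from day 4 to day 12 and higher at 4 and 8 days off. Oaf had 0.404, 0.367, 0.269 and 0.529 on Dox, against 1.51, 0.346, 0.625 and 0.489 not on Dox, so that it was low in every library after day 0, on and off Dox.

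The members past the 2-fold limit at day 12 were followed through the other libraries. The 208 higher members had medians of 0.375, 0.561, 0.854 and 1.02 at day 0, 4, 8 and 12, 0.889 in CD11b-high cells, and 0.783, 0.605 and 0.547 at 4, 8 and 12 days off. The 686 lower members had 1.37, 1.28, 0.808 and 0.529 at day 0, 4, 8 and 12, 0.752 in CD11b-high cells, and 0.800, 0.986 and 1.03 at 4, 8 and 12 days off. Day 0 and day 12 chose these members, so values between those 2 are what the choice itself favours in any other library. The CD11b-high median of the lower members was little below that of 4 days off. Over 4, 8 and 12 days off the median of all members was 1.21, 1.35 and 1.48, so the increase of the lower members over these times was near that of all, while the higher members had lower medians at each later time.

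The same regions were also set apart in pairs of libraries that the choice did not use. CD11b-high cells against 12 days off share no library with day 12 against day 0. There, 52 of the 208 higher members (25%, 19.3 to 31.5) were again at least 2-fold higher, against 200 of all 7682 members (2.6%), and 3 were at least 2-fold lower. Of the 686 lower members 135 (19.7%, 16.8 to 22.9) were again lower, against 394 of all members (5.13%), and 7 were higher. The background for this pair was 8.3% higher and 6.84% lower over all always-open regions. At day 8 against 8 days off, 44 of the higher members (21.2%) were higher, against 127 (1.65%) of all, and 56 of the lower members (8.16%) were lower, against 156 (2.03%) of all (background 4.9% and 3.77%). Members of low level crossed the limit more often in each comparison that was split by level, and the pairs used here were not among them. Of the 208 higher members 157 were in the lowest of the 4 groups by mean score. With a score of at least 10 in all libraries, the shares for CD11b-high over 12 days off were 6.67% of 60 higher members and 7.62% of 223 lower ones. The share of all members under that minimum is not given here, so these shares have no background.

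**Figure D2:**
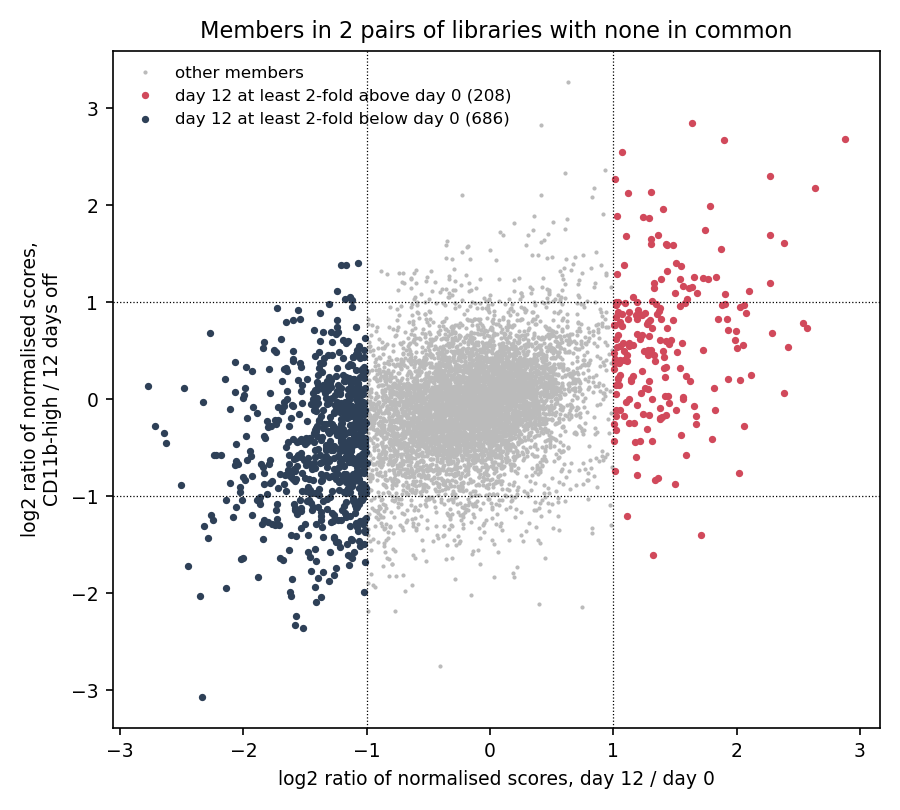
Each point is 1 of the 7682 members, with its log2 ratio of normalised scores at day 12 over day 0 on the x axis and in CD11b-high cells over 12 days off on the y axis, 2 pairs that share no library. Members at least 2-fold above day 0 are red (208) and those at least 2-fold below it dark blue (686); 52 of the red points lie above the upper dotted line and 135 of the dark blue points below the lower one.

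After withdrawal, 214 members were at least 2-fold higher and 126 lower at 4 days off than at day 12 (background 5.21% and 3.43%). At 8 days off 327 were higher and 180 lower (background 5.78% and 6.06%), and at 12 days off 427 were higher and 193 lower (background 6.75% and 8.72%). The median log2 ratios were -0.17, -0.06 and 0.10, and centred on them the counts at 12 days off were 332 higher and 246 lower. Of all 18733 always-open regions, centred on their own median, 1199 were higher and 1705 lower. Set against day 0, the library of 12 days off had 93 members higher and 190 lower (background 5.81% and 2.86%). With scores divided by the median over members, the counts at 12 days off against day 12 were 278 higher and 283 lower, with no background given under that divisor. The day 12 library is shared by the first 3 comparisons and had the lowest divisor.

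A stricter description asks in which members all 4 libraries on Dox lay on one side of all 4 libraries not on Dox. In 188 members (2.45%) the libraries on Dox were all above, where 3.29% of all always-open regions were, and in 140 (1.82%) they were all below, where 3.15% were. Both shares were under the background. The gap between the sides was at least 1.5-fold in 4 of the 188 and in 16 of the 140. It reached 2-fold in 0 of the 188 and in 3 of the 140, namely Nol3, Fam13a and Kcnn4. Of the 188, 28 were also at least 2-fold higher at day 12 than at day 0, and 59 of the 140 were 2-fold lower, counts that share 2 libraries with the rule. The libraries of a side are different times and 1 sort, and no replicates.

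The 12 members with the widest gap on the upper side were named by the size of that gap. Pglyrp1, a bacteria-binding protein of neutrophil granules (chr7:18884387-18885361), had 1.22, 1.19, 1.69 and 1.26 on Dox, against 0.624, 0.809, 0.587 and 0.501 not on Dox, a gap of 1.48-fold. Pik3cg, the catalytic subunit of phosphoinositide 3-kinase gamma (chr12:32208159-32209135), had 0.843, 1.07, 0.864 and 0.65 on Dox, against 0.366, 0.46, 0.421 and 0.177 not on Dox, with the lowest score at 12 days off. Ccl3, the chemokine MIP-1 alpha (chr11:83649271-83649892), had 0.906, 1.15, 1.16 and 0.807 on Dox, against 0.28, 0.534, 0.574 and 0.547 not on Dox, with the lowest score at day 0.

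Dtx3l, a ubiquitin ligase of the interferon response (chr16:35939712-35940128), had 1.63, 0.97, 0.955 and 1.33 on Dox, against 0.663, 0.608, 0.652 and 0.649 not on Dox. The iron carrier transferrin, Trf (chr9:103230132-103230531), had 0.893, 0.914, 1.2 and 0.86 on Dox, against 0.385, 0.586, 0.348 and 0.119 not on Dox. The region shared by the start of Stip1, a co-chaperone, and an end of Fermt3, an activator of integrins in blood cells (chr19:7020163-7020698), had 0.328, 0.452, 0.317 and 0.305 on Dox, against 0.13, 0.189, 0.153 and 0.176 not on Dox. It was the lowest of the 12 in level, and its gap was 1.62-fold.

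Olfr433 had the widest gap of all, 1.7-fold, and Itpr2 followed with 1.63-fold. Of the other members on this side, Ttc6 and the claudin Cldn14 had scores under 1 in every library. Nudt14, a hydrolase of UDP-glucose, had 0.914, 0.947, 0.908 and 0.864 on Dox, against 0.655, 0.578, 0.506 and 0.265 not on Dox. Ppp1r3b, which targets protein phosphatase 1 to glycogen, had 1.94, 1.92, 1.72 and 1.92 on Dox, against 1.32, 1.26, 1.22 and 1.06 not on Dox. In the last of these every library stood above 1, so the upper side held regions of high level as well as low.

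On the lower side, the widest gap was at Nol3, an inhibitor of apoptosis, in a region shared with Hsf4 (chr8:105276285-105276677), with 0.243, 0.29, 0.325 and 0.234 on Dox, against 0.999, 0.733, 0.878 and 0.931 not on Dox, a gap of 2.25-fold. Fam13a (chr6:59024379-59024750) had 0.36, 0.453, 0.515 and 0.464 on Dox, against 1.13, 1.25, 1.56 and 1.42 not on Dox, a gap of 2.2-fold. Kcnn4, a calcium-activated potassium channel of blood cells (chr7:24369745-24370326), had 0.257, 0.329, 0.236 and 0.29 on Dox, against 0.707, 0.895, 0.901 and 1.46 not on Dox, a gap of 2.15-fold. In all 3 the score was already low at day 4, and at 4 days off it was at least 2-fold above that of day 12.

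S1pr1, a receptor for sphingosine 1-phosphate that guides the exit of lymphocytes from tissues (chr3:115714660-115715535), had 0.355, 0.301, 0.286 and 0.331 on Dox, against 1.4, 0.685, 0.983 and 0.895 not on Dox. The zinc finger gene Zfp964 (chr8:69654247-69654623) had 0.436, 0.267, 0.487 and 0.347 on Dox, against 0.951, 1.1, 0.933 and 1.21 not on Dox, and Angptl2, a secreted angiopoietin-like protein (chr2:33215696-33216145), had 0.321, 0.508, 0.657 and 0.677 on Dox, against 1.49, 1.31, 1.28 and 1.45 not on Dox. Again day 4 was among the low libraries in each, and at 12 days off the score of Zfp964 was above that of day 0.

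Bhlha15, a basic helix-loop-helix factor of secretory cells, had 0.781, 0.738, 0.332 and 0.774 on Dox, against 1.38, 1.3, 1.94 and 1.67 not on Dox, and Neurod4, a neurogenic factor of the same family, had 0.694, 0.464, 0.613 and 0.498 on Dox, against 1.36, 1.15, 1.52 and 1.52 not on Dox. Pcbd1, a pterin dehydratase, and Rnpep, an aminopeptidase, also lay lower on Dox, with scores of 0.450 to 0.519 and 0.220 to 0.414 on Dox, against 0.863 to 1.2 and 0.655 to 1.0 not on Dox. Mtss2, in a region shared with Vac14, had 0.111, 0.445, 0.346 and 0.316 on Dox, against 1.14, 0.936, 1.02 and 0.743 not on Dox. Its day 4 value was the lowest of all values of both sides.

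**Figure D3:**
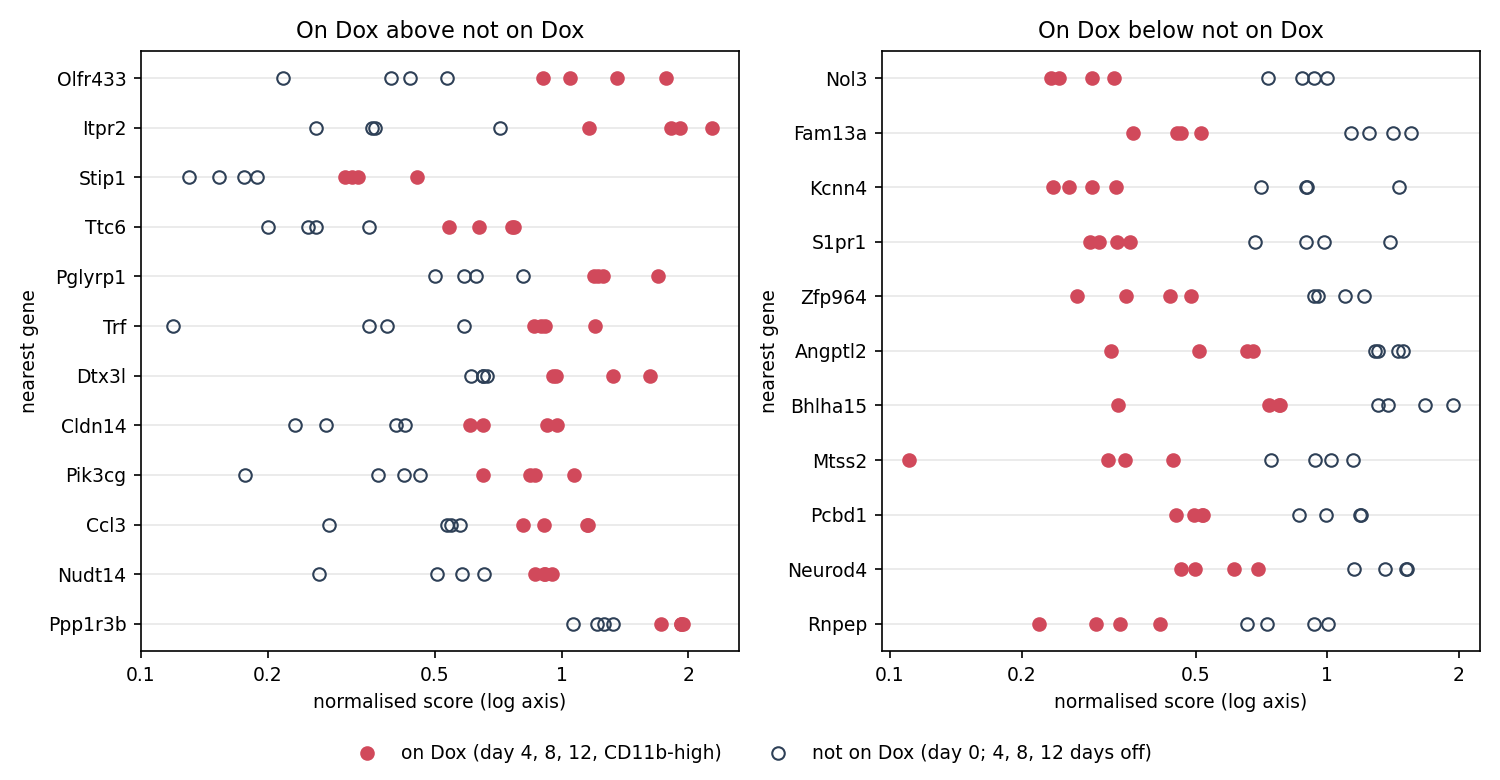
Normalised scores (log axis) of the 12 members with the widest gap on the upper side (left) and of 11 of the 12 on the lower side (right), 1 row per member. Filled points are the 4 libraries on Dox and open points the 4 not on Dox; on the left all filled points lie to the right of the open ones and on the right the reverse, and 1 row on the left (Itpr2) has a filled point above 2.

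CD11b-high cells scored within 2-fold of total cells of day 12 in 95.1% of the members. Over the comparisons made, that share ran from 88.4% (day 12 over day 0) to 96.3% (12 days off over day 0). It was 96.1% at day 4 over day 0, so the libraries of day 12 differed more than some pairs across time or Dox. At least 2-fold higher in CD11b-high cells were 212 members and lower 168 (background 3.59% and 3.97%), with a median log2 ratio of 0.03. Besides B4galt7 and Vps72, the highest ratios belonged to H4c18, a histone gene, with 0.917 in CD11b-high cells and 0.229 in total cells of day 12, to Bend6 with 0.977 in CD11b-high cells and 0.257 in total cells of day 12, to Zfp608 with 1.02 in CD11b-high cells and 0.276 in total cells of day 12, and to the complex I subunit Ndufc1 with 1.77 in CD11b-high cells and 0.499 in total cells of day 12. In all 6 the day 12 score was the lowest of the 8 libraries. Lowest were Reep4 with 0.129 in CD11b-high cells and 0.857 in total cells of day 12, the lens lectin Grifin with 0.171 in CD11b-high cells and 0.62 in total cells of day 12, the nucleoporin Nup43 with 0.384 in CD11b-high cells and 1.39 in total cells of day 12, Atxn1 with 0.257 in CD11b-high cells and 0.908 in total cells of day 12, Rasgef1b with 0.185 in CD11b-high cells and 0.639 in total cells of day 12 and Nlrp3, the sensor of an inflammasome, with 0.24 in CD11b-high cells and 0.829 in total cells of day 12. For each of these 6 the CD11b-high score was the lowest of all 8 libraries. The value of Reep4 was near 0.125, the lowest of any member in the CD11b-high library. At Rasgef1b the scores of day 4 and 8 were low as well, 0.285 and 0.277, and all libraries on Dox lay below the others.

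At Spi1, Kit, Runx1, Cebpa, Cebpb and Myc, 6 genes of blood development and growth fixed by name, the libraries on and off Dox overlapped. At Myb and Gfi1, given below, all libraries on Dox lay below the others, and at Lyl1 and Vdr all lay above them. At Spi1 (chr2:91082872-91083291), 707 bp from an end of the gene, the scores were 1.31, 1.51, 1.4 and 1.06 on Dox, against 1.16, 1.43, 1.38 and 1.56 not on Dox. Kit, the stem cell factor receptor, had 1.41, 1.44, 1.18 and 1.19 on Dox, against 1.27, 1.55, 1.3 and 1.63 not on Dox, and the haematopoietic factor Runx1 had 1.62, 1.47, 1.44 and 1.05 on Dox, against 1.21, 0.944, 1.05 and 1.04 not on Dox. In the last of these the day 4, 8 and 12 scores were above all libraries off Dox, and that of CD11b-high cells was not. The level at Spi1 is no check of PU.1 restoration, since accessibility does not measure its RNA or protein.

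Cebpa, a factor of granulocyte differentiation, had 1.83, 1.41, 1.06 and 1.66 on Dox, against 1.99, 1.49, 1.4 and 1.29 not on Dox, and the related Cebpb had 0.592, 0.509, 0.417 and 0.403 on Dox, against 0.66, 0.436, 0.53 and 0.513 not on Dox. The highest value of both was that of day 0. Myc, a driver of growth, had 1.21, 0.654, 1.16 and 0.922 on Dox, against 1.47, 1.01, 1.21 and 1.47 not on Dox, lowest at day 8.

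The 23 gene lists held members near genes of common pathways, and 22 of them had at least 10 members. They are set beside all members, whose median log2 ratio was -0.18 at day 12 over day 0 and -0.07 in CD11b-high cells over 12 days off. In 12 of the 22 lists the first median was below that of all members, in 11 the second, and in 9 both. The 9 were proteasome (-0.53 and -0.27), cytosolic ribosomal proteins (-0.43 and -0.14), transcription machinery (-0.45 and, barely lower, -0.07), splicing, oxidative phosphorylation, cell cycle, chromatin regulators, mitochondrial ribosomal proteins and stem and leukaemia factors. In 8 lists both medians were above. At day 12 against day 0, 2.71% of all members were at least 2-fold higher and 8.93% lower (12.1% and 7.71% of always-open regions), the shares beside which the lists' counts stand. Of the 22 lists 5 had a larger share of higher members than that and 9 a larger share of lower ones, and each list held 14 to 36 members.

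Of the 31 members at cell cycle and DNA replication genes, 0 were higher and 5 (16.1%) lower at day 12 than at day 0, with a median log2 ratio of -0.35. The mitotic checkpoint kinase Bub1 (chr2:127831402-127832101) had 1.52, 0.951, 0.296 and 0.548 on Dox, against 1.47, 0.771, 1.14 and 1.35 not on Dox. Tyms, thymidylate synthase, had 0.665, 0.991, 0.471 and 0.543 on Dox, against 1.31, 1.26, 1.15 and 1.01 not on Dox, and Rrm2, a subunit of ribonucleotide reductase, had 1.4, 0.618, 0.666 and 0.823 on Dox, against 1.51, 0.717, 1.37 and 1.12 not on Dox. The cyclin Ccnb2 had 1.53, 1.22, 0.711 and 1.87 on Dox, against 1.49, 1.19, 1.54 and 1.35 not on Dox. Day 12 was the lowest library for Bub1, Tyms and Ccnb2, and the CD11b-high score of Ccnb2 was its highest.

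Uhrf1, which keeps DNA methylation through replication, had 1.08, 0.625, 0.415 and 0.838 on Dox, against 1.69, 0.862, 1.16 and 1.63 not on Dox and was 1 of 2 lower members (6.67%) among 30 at chromatin regulators. Of 36 members at the transcription machinery 0 were higher and 5 (13.9%) lower, led by the TFIIH subunit Gtf2h2 with 0.934, 0.413, 0.229 and 0.522 on Dox, against 1.11, 0.399, 0.546 and 0.325 not on Dox. The polymerase II subunits Polr2g and Polr2c had log2 ratios of -1.84 and -1.38 and the TATA-binding protein Tbp -1.32. For Uhrf1 and Gtf2h2 day 12 was the lowest library, but only Uhrf1 was near its day 0 value at 12 days off.

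Among 30 members at cytosolic ribosomal protein genes 0 were higher and 3 (10%) lower, namely Rps7 with 0.549 at day 12 and 1.75 at day 0, Rps16 with 0.667 at day 12 and 1.73 at day 0 and Rpl23 with 0.835 at day 12 and 1.9 at day 0. Of 27 at proteasome genes 0 were higher and 3 (11.1%) lower, Psmb6 with 0.86 at day 12 and 2.36 at day 0, Psmb5 with 0.47 at day 12 and 1.18 at day 0 and Psma3 with 0.292 at day 12 and 0.678 at day 0. The 28 members at splicing genes held 0 higher and 4 (14.3%) lower, led by the RNA helicase Ddx39b with 0.376 at day 12 and 1.39 at day 0 and followed by U2af1, which recognises the 3′ splice site, with 1.3 at day 12 and 3.0 at day 0. Over the 30 ribosomal protein members the median score was 2.03 at day 0 and 2.20 at day 4, and 1.34 to 1.41 at day 8, day 12 and in CD11b-high cells. It was 1.20 at 4 days off. The lower level was thus shared by a library off Dox.

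Factors of stem and progenitor cells gave 0 higher and 2 lower (14.3%) of 14 members, with medians of -0.22 and -0.38 in the 2 pairs. Msi2, an RNA-binding protein of stem cells, had 1.73, 0.516, 0.405 and 0.373 on Dox, against 1.48, 0.52, 0.885 and 0.774 not on Dox, and Myb, a factor of progenitor proliferation, had 0.61, 0.599, 0.335 and 0.378 on Dox, against 1.09, 0.656, 0.904 and 0.647 not on Dox. Both were lowest at day 12 or in CD11b-high cells, although at 4 days off Msi2 was nearly as low as at day 8. Among 25 members at myeloid transcription factors 0 were higher and 1 (4.0%) lower, the repressor Gfi1, with 0.602, 0.621, 0.46 and 0.568 on Dox, against 1.06, 0.763, 0.643 and 0.656 not on Dox. On the upper side, Lyl1 of the stem and progenitor list and Vdr of the myeloid list had all libraries on Dox above the others. So did 188 of all 7682 members (2.45%) and 3.29% of all always-open regions.

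Myeloid surface and effector genes had 3 higher (11.1%) and 2 lower (7.41%) members of 27, a median log2 ratio of 0.06 and, in the second pair, of -0.14. In 4 of the 27 the libraries on Dox were all above the others and in 1 all below, against 188 (2.45%) and 140 (1.82%) of all 7682. Of all always-open regions 3.29% were above and 3.15% below. The higher ones included Ncf4, a subunit of the phagocyte oxidase, with 1.21, 0.98, 1.07 and 1.3 on Dox, against 0.341, 0.80, 0.505 and 0.543 not on Dox, and Csf2rb, the common beta chain of the IL-3, IL-5 and GM-CSF receptors, with 1.03, 1.07, 1.38 and 1.34 on Dox, against 0.528, 0.902, 0.983 and 0.567 not on Dox. In both the 4 libraries on Dox lay above all others, as the values show. Lower were the antimicrobial peptide gene Camp with 0.444, 0.437, 0.294 and 0.261 on Dox, against 0.824, 0.848, 0.44 and 0.354 not on Dox, and a region at the 3′ end of Ifitm3, an antiviral membrane protein, with 0.875, 0.751, 0.399 and 0.316 on Dox, against 1.37, 0.412, 0.728 and 0.382 not on Dox.

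The 28 members at lysosome and phagosome genes held 1 higher (3.57%) and 6 lower (21.4%), with a median of 0.00. The higher one was the cathepsin Ctsh, with 1.35, 2.43, 2.97 and 2.8 on Dox, against 1.33, 2.01, 1.62 and 1.9 not on Dox, and among the lower ones the lysosomal regulator Tfe3 had 0.634 at day 12 and 1.55 at day 0. Interferon response genes had 2 higher (7.41%) and 1 lower (3.7%) of 27. Isg20, an interferon-induced exonuclease, had 0.612, 0.964, 1.08 and 1.06 on Dox, against 0.474, 0.685, 0.55 and 0.527 not on Dox, and a region near ends of Il10rb and Ifnar2 had 1.03 at day 12 and 0.411 at day 0. At NF-kB and Toll-like receptor genes 2 were higher and 2 lower of 27 (7.41% each), among them Birc3, an inhibitor of apoptosis, with 1.93, 2.6, 3.09 and 3.11 on Dox, against 1.53, 2.07, 2.15 and 2.02 not on Dox. At Birc3 and Isg20 the day 8, day 12 and CD11b-high scores were above all libraries off Dox, and that of day 4 was not.

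Sterol and lipid synthesis genes had 0 of 20 members past the limit in either direction, replication-dependent histones 0 higher and 1 (5.56%) lower of 18, and heat shock and unfolded protein response genes 0 and 2 (7.14%) of 28. Immediate early genes had 0 higher and 4 (16.7%) lower of 24, including Fosb with 0.686 at day 12 and 1.47 at day 0, Ier2 with 0.52 at day 12 and 1.13 at day 0 and Fosl1 with 0.222 at day 12 and 0.513 at day 0. Oxidative phosphorylation and mitochondrial ribosomal proteins each had 0 higher and 2 lower, of 28 (7.14%) and 21 (9.52%). Translation factors, CDK inhibitors and KRAB zinc finger genes each had 0 higher and 1 lower, of 31 (3.23%), 21 (4.76%) and 28 (3.57%). Glycolysis and hypoxia genes had 1 higher (5.26%), the region at Ldha, and 0 lower of 19. The 33 non-blood genes had 4 members, of which 1, at the 3′ end of the apolipoprotein gene Apoa1, was higher.

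**Figure D4:**
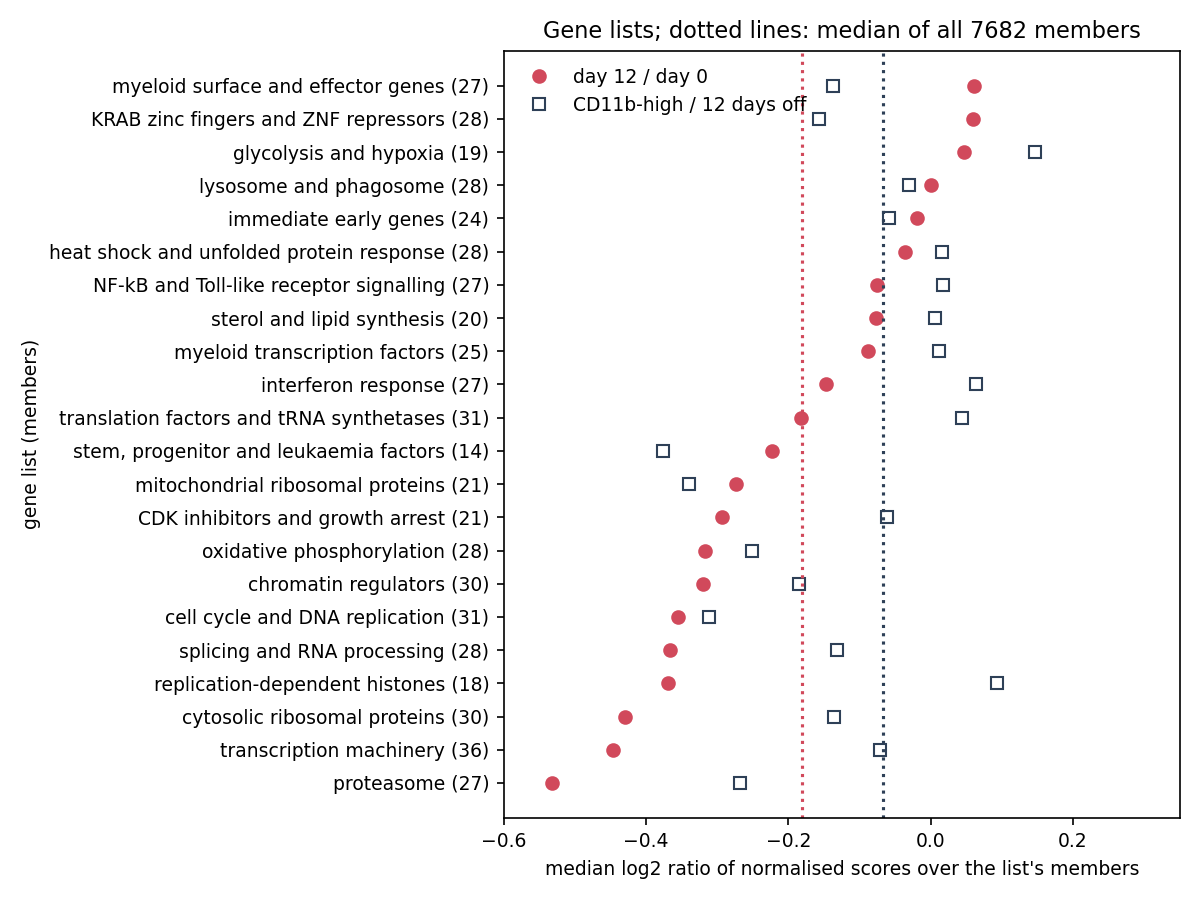
Median log2 ratio of normalised scores over the members of each gene list (number of members in brackets), for day 12 over day 0 as filled circles and for CD11b-high over 12 days off as open squares, 2 pairs with no library in common. Dotted lines are the medians of all 7682 members (-0.18 and -0.07); the proteasome list lies lowest in the first pair.

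Promoter windows could be tied to 5632 of the 7682 members (73.3%), to 95 of the 208 that were higher at day 12 and to 499 of the 686 that were lower. As a whole, the members' windows were rich in CpG, with a median of 23 per window against 7 in all 32851 windows of the table. They held the ETS word CCGGAAG in 22.5% against 8.86% of all windows, and the SP/KLF word GGGGCGGG in 36.8% against 16.5%. The NFY words CCAATCA and CCAATGA were in 18.3% against 11.6%, and the YY1 word AAGATGGCG in 4.23% against 1.40%. The PU.1 word GAGGAAGT was in 3.02% against 3.20%, and the AP-1 word TGANTCA in 3.98% against 7.81%. Words were searched on both strands, and where words overlap each was counted.

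Windows of members that were higher at day 12 differed in composition from those that were lower. The higher ones had a median of 8 CpG and the lower ones 21, beside 7 in all windows of the table. Those windows held the ETS word in 8.86%, the AP-1 word in 7.81% and the PU.1 word in 3.20%. The part of CpG number in the shares below was not tested. The ETS word was in 5.26% (1.73 to 11.9) of the higher, 27.3% (23.4 to 31.4) of the lower and 22.5% of all members' windows. The AP-1 word was in 15.8% (9.12 to 24.7, 15 windows) of the higher and 4.41% (2.78 to 6.60) of the lower. The PU.1 word was in 7.37% (3.01 to 14.6, 7 windows) of the higher and 0.802% (0.219 to 2.04, 4 windows) of the lower. Between higher and lower members the intervals of the PU.1, AP-1 and ETS words did not overlap, whereas the interval of the higher ones for PU.1 just included the 3.02% of all members. The YY1 word was in 0 of the 95 higher windows and in 7.01% of the lower ones. The count of 0 allows a share of up to 3.81% by the exact interval, and of 3.16% where 3 windows are taken as the upper limit.

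The same words were set side by side among members of low level and in other pairs of libraries. In the 1921 members with the lowest level, the PU.1 word was in 7.35% of the higher windows, 0.858% of the lower ones and 3.74% of all. The intervals of the higher and lower ones, 2.43 to 16.3 (5 windows) and 0.104 to 3.07 (2 windows), overlapped. The AP-1 word was in 14.7% (7.28 to 25.4), 6.01% (3.32 to 9.88) and 5.83%, also with overlap. In CD11b-high cells over 12 days off, which share no library with day 12 over day 0, the PU.1 word was in 9.40% (4.79 to 16.2, 11 windows) of the higher and 2.26% (0.832 to 4.84, 6 windows) of the lower, intervals that just overlapped. The AP-1 word was there in 5.98% (2.44 to 11.9) and 4.89% (2.63 to 8.21), so its intervals overlapped too. At day 8 over 8 days off the PU.1 word was in 8.00% (2.99 to 16.6, 6 windows) of the higher and 3.12% (0.649 to 8.86, 3 windows) of the lower, with overlapping intervals. Members with all libraries on Dox above the others had the PU.1 word in 6.56% (8 windows), and those with all below in 3.61% (3 windows), again with overlapping intervals. The ETS word did not keep 1 direction. Among members of the lowest level it was in 5.88% (1.63 to 14.4) of the higher and 21.5% (16.4 to 27.3) of the lower. It was in 13.7% and 20.7% in CD11b-high cells over 12 days off, with overlapping intervals. At day 8 over 8 days off it was in 14.7% and 15.6%. With all libraries on Dox above it was in 29.5% (21.6 to 38.4), and with all below in 13.3% (6.81 to 22.5). That order is the reverse of day 12 over day 0.

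**Figure D5:**
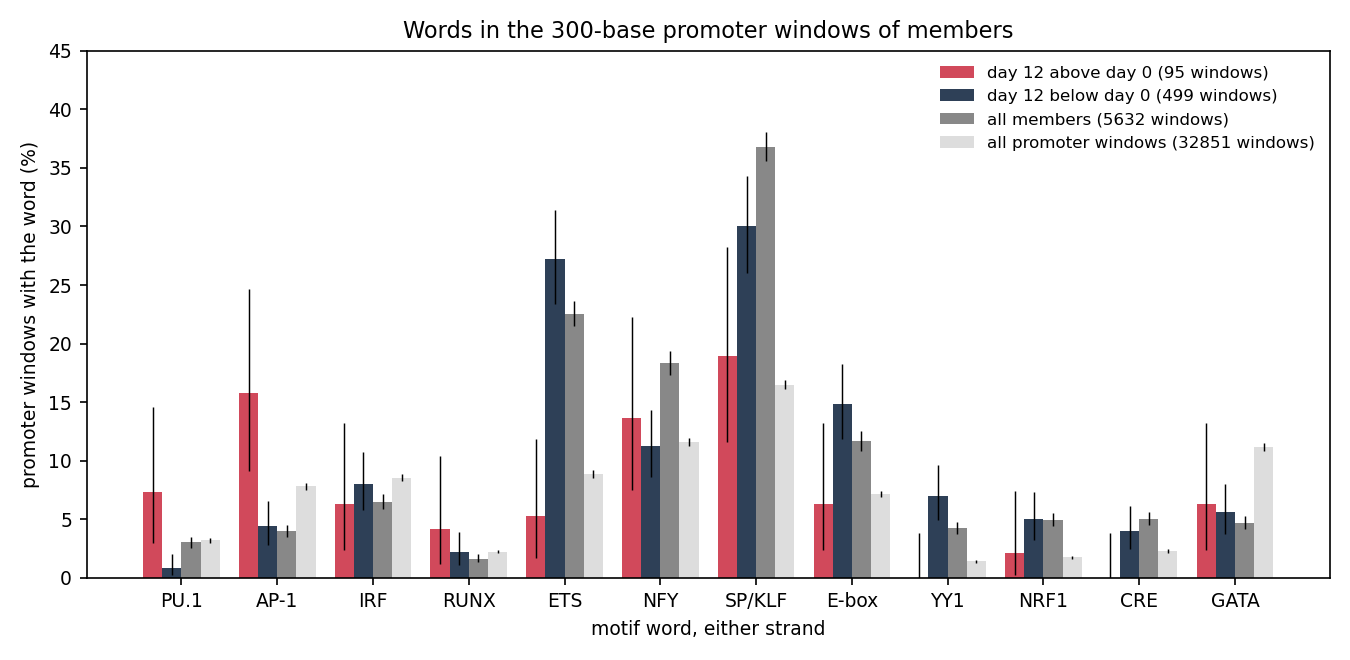
Percent of 300-base promoter windows that hold each motif word on either strand, for members higher (95 windows) and lower (499) at day 12 than at day 0, all members (5632) and all windows of the table (32851). Lines are exact 95% intervals for counting error; the PU.1 and AP-1 words were most frequent in the higher members and the ETS word in the lower ones.

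The 7 higher members with the PU.1 word lay at Traf3ip3, I830077J02Rik, Pik3cg, Zkscan4, Csf2rb2, Btla and Fgd2, all but Btla shown above by sequence. I830077J02Rik (chr3:105932328-105932885) had 1.09, 1.18, 1.49 and 1.51 on Dox, against 0.398, 0.914, 0.512 and 0.237 not on Dox. Fgd2, a Cdc42 exchange factor of antigen-presenting cells (chr17:29360725-29361096), had 1.23, 1.53, 1.49 and 1.24 on Dox, against 0.658, 0.983, 0.741 and 0.678 not on Dox. In both, and in Pik3cg, every library on Dox was above every other. Traf3ip3 (chr1:193201415-193201781) had 1.07, 2.18, 2.38 and 2.14 on Dox, against 1.16, 1.46, 1.28 and 0.872 not on Dox, with day 4 among the low libraries.

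Zkscan4 (chr13:21478686-21479376) had 0.345, 0.459, 1.04 and 0.594 on Dox, against 0.26, 0.989, 0.28 and 0.412 not on Dox, and Btla, an inhibitory receptor of lymphocytes (chr16:45223638-45224299), had 0.187, 0.462, 0.644 and 0.548 on Dox, against 0.321, 0.541, 0.627 and 0.656 not on Dox. For Zkscan4 the value of 4 days off was close to that of day 12, and for Btla the sides overlapped. Of the 7, Traf3ip3, I830077J02Rik, Pik3cg and Csf2rb2 were again among the 11 with the word in CD11b-high cells over 12 days off. That pair added Inpp5d, the SHIP1 lipid phosphatase of blood cells, with 0.466, 0.913, 0.662 and 0.632 on Dox, against 0.376, 0.728, 0.30 and 0.247 not on Dox, and the chemokine receptor Cxcr3, with 0.486, 0.568, 0.668 and 1.07 on Dox, against 0.349, 0.953, 0.686 and 0.433 not on Dox, besides Trim5, Pdcd7, Rab32, Ndst2 and Dennd1c. The 4 lower members with the word lay at Wdr34, Pigbos1, Rufy1 and Exoc7.

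The 1 kb limit cut through a continuous spread of distances. Just inside it, the regions at Flt3 and Sgsm2 (1000 bp each) and Kcnj6 (998 bp) had normalised scores of 0.399, 0.925 and 0.651 in the day 12 library, against 0.685, 0.567 and 0.931 in the day 0 library. Just outside it, those at Snx13 and Ctf1 (1001 bp each) and Atg2a (1002 bp) had 1.33, 0.604 and 1.61 in the day 12 library, against 1.72, 0.443 and 0.522 in the day 0 library. These values are given for description only.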

How the data were processed

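Each of the 8 ATAC-seq libraries was deposited as a list of single-base peak summits with a score, on build mm10. Picard 2.14.0 and MACS2 are the tools listed per the submitters' processing notes, and the names of the lists mention removal of mitochondrial reads, handling of duplicates and a shift. No source used here gives the MACS2 version, the aligner or the depth. The score deposited by the authors was read as a −log10 p-value (or q-value, which could not be settled), because the smallest score of each list lay at 1.30 to 1.39, near where 0.05 falls. It moves with depth.

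Around each summit on an autosome, X or Y, 150 bp were added on both sides, and overlapping stretches were merged (Python 3.11.15, pandas 2.3.3, numpy 2.4.6). A library's score in a region was its highest summit score there, divided by the library's median over the 18733 regions open in all 8 libraries. Gene ends came from a RefSeq table of GRCm38.p6 with 21887 protein-coding genes, of which 17492 had a strand through the promoter table. Called means a ratio of at least 2-fold. Since each group held 1 library, no test was run. Shares carry exact Clopper-Pearson 95% intervals (scipy 1.17.1), which cover counting error and treat regions as independent although neighbours may not be.

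The members and gene lists were chosen with earlier results of these data known; of 771 listed genes 770 matched. Members were named by rank: 12 on each side of Dox, 6 at each end of day 12 over day 0 and of CD11b-high over total cells, 6 by level, 5 by steadiness, up to 4 per list, 6 fixed genes, and 3 on each side of the 1 kb limit. Besides the motifs spelled out above, the words searched were GCGCATGCG (NRF1), TGACGTCA and TGACGTAA (CRE), TTGCGCAA, TTGCGTAA and TTGCACAA (C/EBP), TGTGGTTT and TGCGGTTT (RUNX), ACTACAA (ZNF143), TTTGGCGC and TTTCCCGC (E2F), CCATATTAG and CCTTATAAG (SRF) and TGACTCAGC (MAF/NRF2), which also matches AP-1. Some members that this rule names, 1 of the 12 on the lower side of Dox among them, are not reported here. Holders of the PU.1 word were named after their values were seen. Merging was checked on the deposited summits against another tool, bedtools, and scaling and counting were tested on simulated scores. Alternatives changed the divisor, the fold limit, the score minimum, the extension and the set of libraries.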

Additional observations from a re-analysis of the deposited data

How the results depend on the processing

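No paired analysis was possible because each group held 1 library. The number of members, 7682, ranged from 5844 with a score of at least 10 in all libraries to 8547 within 2 kb of a gene end. With scores divided by the members' own median, 387 were at least 2-fold higher and 311 lower at day 12 than at day 0, so the balance turned, and 278 were higher at 12 days off than at day 12. Without any division 47 were higher and 2831 lower at day 12, 4 members had all libraries on Dox above the others, and the shares set apart the same way in CD11b-high cells over 12 days off were 36.2% and 10.4%. With a 1.5-fold limit the counts were 506 and 1810 at day 12 and 1234 and 621 at 12 days off, and the shares 37.4% and 30.6%. At scores of 10 or more, these counts became 60 and 223, and 85 and 29, with 43 members below on Dox and shares of 6.67% and 7.62%. At gene starts alone 125 were higher at day 12 and 123 lower at 12 days off. Leaving out 1 library, which can only add members to either side, gave 221 to 469 above and 185 to 385 below on Dox, the most above without day 8 (469) and the most below without day 4 (385). The shares of all always-open regions under these alternatives are not given here, so these counts have no background. Of 133 comparisons of a count or share with an alternative, 104 stayed within 1.5 times its value or the interval of the share. Some of the 104 could not change, so they say nothing on stability. These include the number of members under another divisor or fold limit, and the counts on each side of Dox under another fold limit. The unknown read depth and the single library per group limit every value.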
